A study of Mus musculus with 12 samples.

Results

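A set of 10 genes that mark skeletal muscle was followed across sorted bone progenitors of the mouse: Acta1, Ckm, Tnnc2, Tnnt3, Tnni2, Myl1, Mylpf, Atp2a1, Mybpc1 and Myod1. They were taken as a named list, by every probe set annotated with that gene symbol alone, and are 10 of the 18193 genes that have such a probe set on the array. They were selected on earlier results from these arrays, in which such genes stood higher in CSP and Thy labelled JUN than in CSP and Thy labelled -JUN, so differences between those arms are given as a description without a test. All 10 had a probe set that passed a filter on dim signal, as did 12516 genes in all. The list has 16 probe sets, of which 10 passed and 6 did not, and each gene was represented by its brightest probe set that passed.

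The series profiled RNA of 3 osteoprogenitor populations, SSC, CSP (BCSP in the design text) and Thy (Thy+ there), purified by flow cytometry from JUN inducible mice. Cells came from long bones, skull cap, scapula, vertebrae and ribs, and each array was read once with biotin-labelled RNA. Pups received doxycycline, the inducing drug, through what their mother drank, and the design text puts sorting after 2 days of induction. All animals are described as JUN inducible mice on a regular diet, so the arms share that genotype. The labels do not say whether pups labelled -JUN were given doxycycline, nor what drives the transgene. SSC labelled JUN came from mouse 4 and mouse 7, and SSC labelled -JUN from mouse 3 and mouse 10. CSP labelled JUN and Thy labelled JUN again came from mouse 4 and mouse 7, and CSP labelled -JUN and Thy labelled -JUN from mouse 3 and mouse 3b. Each of the 6 groups holds 2 arrays, 12 in all, and the labels do not say whether mouse 3b is a separate animal from mouse 3. The titles of 3 SSC arrays, those of mice 3, 7 and 10, carry a shared date, and the other 9 titles carry none. What the date marks is not given in the sources used here. With so few arrays, each p-value here measures only the spread between these samples.

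Skeletal muscle fibres contract when myosin of the thick filament pulls on actin of the thin filament. Calcium bound by the troponin complex lets myosin reach actin, and calcium is pumped back into the sarcoplasmic reticulum when the fibre relaxes. In the embryo, transcription factors of the MyoD family bind E-box motifs and switch on many of these genes. In the body, skeletal muscle lies against bone and is joined to it by tendon. Of the 10 genes, 8 code for parts of the contractile apparatus or its calcium pump. Ckm, the muscle creatine kinase that buffers ATP, and Myod1, the transcription factor MyoD, belong to muscle but are not contractile proteins.

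The proximal promoters show what the list has in common in sequence. RefSeq promoters of GRCm38.p6, each of 300 bases with 250 before the start of the gene and 50 after it, were at hand for 7 of the 10 genes, and 5 are printed here. Capitals mark the E-box CAGCTG on either strand and, in Acta1 alone, a CArG box, the motif of serum response factor. Acta1 lies at chr8:123894726-123895025 on the minus strand, Ckm at chr7:19410844-19411143 on the plus strand, Mylpf at chr7:127211358-127211657 on the plus strand, Mybpc1 at chr10:88605103-88605402 on the minus strand and Tnnc2 at chr2:164779685-164779984 on the minus strand. Acta1, Ckm and Mylpf are shown as genes that moved together across arrays, Mybpc1 as the gene that least followed the others, and Tnnc2 as the promoter that lacks this E-box.
Acta1: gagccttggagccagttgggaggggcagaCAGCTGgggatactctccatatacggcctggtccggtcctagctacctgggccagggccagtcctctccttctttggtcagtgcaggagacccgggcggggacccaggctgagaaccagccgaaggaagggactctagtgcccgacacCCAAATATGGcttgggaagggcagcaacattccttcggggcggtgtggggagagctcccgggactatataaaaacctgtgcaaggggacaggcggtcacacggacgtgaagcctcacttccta
Ckm: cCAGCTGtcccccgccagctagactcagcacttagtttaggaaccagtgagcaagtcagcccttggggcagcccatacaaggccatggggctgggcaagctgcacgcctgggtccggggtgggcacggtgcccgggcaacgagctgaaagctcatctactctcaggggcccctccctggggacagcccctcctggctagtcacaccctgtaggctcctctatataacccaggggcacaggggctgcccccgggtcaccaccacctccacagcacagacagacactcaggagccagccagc
Mylpf: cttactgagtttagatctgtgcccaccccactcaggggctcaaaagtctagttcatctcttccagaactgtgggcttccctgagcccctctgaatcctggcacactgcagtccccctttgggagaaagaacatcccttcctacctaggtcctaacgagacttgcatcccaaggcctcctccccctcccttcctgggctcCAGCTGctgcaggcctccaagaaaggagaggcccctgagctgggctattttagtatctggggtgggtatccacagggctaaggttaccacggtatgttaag
Mybpc1: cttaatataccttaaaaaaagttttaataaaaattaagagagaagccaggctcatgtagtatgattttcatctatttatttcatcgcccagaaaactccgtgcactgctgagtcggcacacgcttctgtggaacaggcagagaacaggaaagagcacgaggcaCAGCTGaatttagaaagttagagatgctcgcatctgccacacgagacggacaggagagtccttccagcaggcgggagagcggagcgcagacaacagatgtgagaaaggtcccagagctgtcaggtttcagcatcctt
Tnnc2: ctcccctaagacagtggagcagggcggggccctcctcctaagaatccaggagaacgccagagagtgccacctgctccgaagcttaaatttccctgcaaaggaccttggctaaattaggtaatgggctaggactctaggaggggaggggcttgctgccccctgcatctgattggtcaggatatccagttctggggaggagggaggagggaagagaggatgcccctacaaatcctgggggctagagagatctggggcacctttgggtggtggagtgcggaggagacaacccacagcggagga

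This E-box was in 6 of the 7 promoters (Acta1, Ckm, Myl1, Mylpf, Atp2a1 and Mybpc1) and in 16.3% of the 32851 promoters of the same length. Its first base lay 51 bases before the start in Mylpf, 55 in Atp2a1, 87 in Mybpc1, 221 in Acta1, 224 in Myl1 and 249 in Ckm. The wider E-box pattern CANNTG, of which CAGCTG is one form, was in 7 of 7 and in 72.3% of all promoters. The CArG box of Acta1 began 73 bases before the start, and 1.63% of all promoters hold one. TATAAA on either strand was in 2 of 7, against 13.6% of all promoters. Acta1 held it on the strand of the gene, and Myl1 on the opposite strand only. The MEF2 motif was in 0 of 7 against 3.19%. These matches describe letters in a window and say nothing of whether a factor was bound. Tnnc2, which lacks CAGCTG but holds 2 matches of CANNTG, followed the list's mean most closely of the 10 genes. Mybpc1, which has CAGCTG, followed it least. Whether a motif goes with moving together was not tested.

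All values are log2 RMA intensities, so a difference of 1 is a doubling of the signal. A probe set's level depends on its probes, and no gene's level is set against another's. The medians of the 12 arrays lay between 7.65 and 7.76. In 7 of the 10 genes the probe set lay above its array's median in all 12 arrays, and Atp2a1, Mybpc1 and Myod1 did so in 7, 7 and 10 arrays. In sorted bulk cells, fewer cells of a type and less RNA per cell cannot be told apart.

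Several facts of the series touch these values. The Jun gene itself did not follow the labels: with 2 probe sets and 3 populations, 5 of the 6 differences between arrays labelled JUN and -JUN were negative (-0.63 to -0.17) and 1 was positive (0.32 in SSC). Where those probes lie relative to the transgene is not given in the sources used here, so Jun does not settle the labels, and the arms are called by their labels throughout. Thy1, the surface protein that gives the Thy population its name, was at 12.8 to 13.3 in the 4 Thy arrays, against 7.28 to 9.63 in the other 8 arrays (adjusted p = 1.08e-04 for SSC minus Thy and 7.69e-05 for CSP minus Thy, limma). Of the other surface genes examined, Eng (endoglin) was lower in SSC than in CSP (-1.57 ± 0.24, adjusted p = 0.0132) and than in Thy (-1.54 ± 0.24, adjusted p = 0.0287, limma), and neither passed with the mouse as a block (0.122 and 0.121) or the title date as a block (0.0942 and 0.149). A list of 7 cartilage cell genes, matrix genes and the regulator Sox9, set some arrays apart: it averaged 13.1, 13.2 and 13.0 in SSC labelled JUN from mouse 4, CSP labelled JUN from mouse 4 and CSP labelled -JUN from mouse 3b, and 8.39 to 11.0 in the other 9 arrays. Those CSP arrays, from different arms and mice, were the closest pair in the series (r = 0.975 over the tested genes).

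Across the arms, the muscle genes were higher on average in arrays labelled JUN in CSP and in Thy, but not in SSC. The mean was higher in arrays labelled JUN for 10 of 10 genes in CSP, where 57.0% of all tested genes were higher. In Thy the count was 10 of 10 against 53.6% of all genes, and in SSC 4 of 10 against 56.3%. The median difference over the 10 genes was 0.71 in CSP, 0.68 in Thy and -0.045 in SSC, beside medians over all tested genes of 0.068, 0.037 and 0.079. The list was chosen with these differences known, so nothing is read from the counts. No single gene of the 12516 tested passed an adjusted p of 0.05 between the arms in limma, 0.0% in each population and on average. Within SSC the date of the titles divides the arm labelled JUN: mouse 7 has it, as both arrays labelled -JUN do, and mouse 4 lacks it. With the date as a block, the arm labelled JUN in SSC therefore rests on the array of mouse 7 alone. In that fit 9 of 10 genes were higher in SSC labelled JUN, with differences of -0.39 (Mybpc1) to 0.78 (Ckm). Leaving out the SSC array of mouse 4 gave the same count, so the block cannot tell the date from that array. Without the block, at an unadjusted p under 0.05, 813 genes were counted in SSC, 288 in CSP, 380 in Thy and 1569 on average. The average treats arrays of 1 mouse as separate samples. With the mouse as a random block in limma, 0 genes passed on average and 1875 had an unadjusted p under 0.05.

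**Figure D1:**
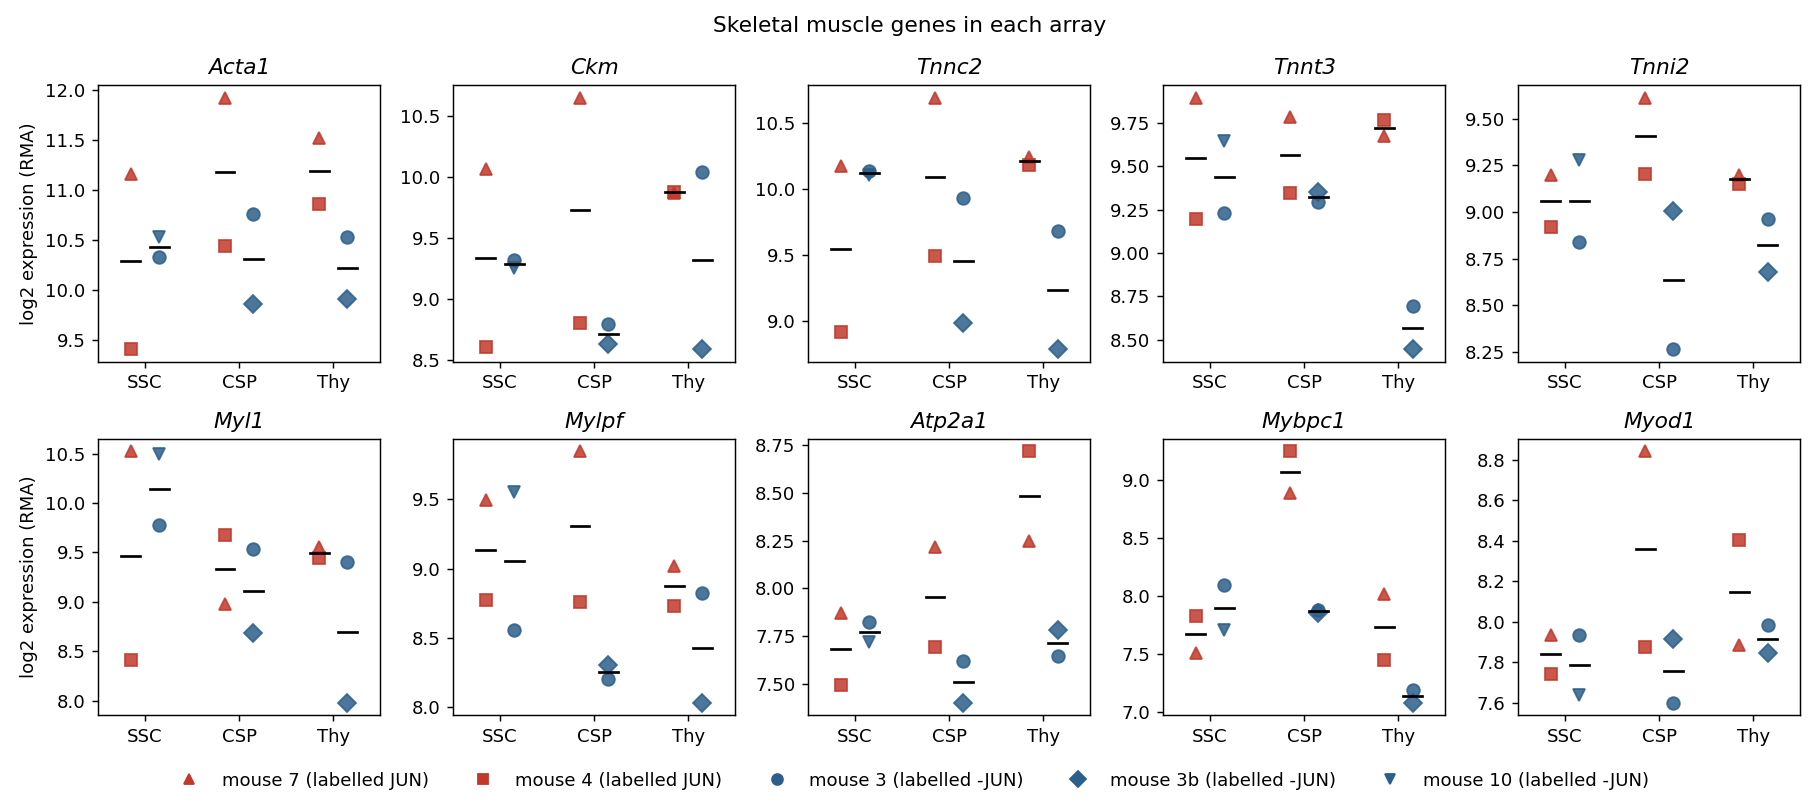
Log2 RMA expression of each of the 10 genes (vertical axes, 1 panel a gene, scales differ) in the SSC, CSP and Thy arrays (horizontal axis). Red points left of each tick are arrays labelled JUN, blue points right of it are labelled -JUN, the marker shape gives the mouse and the black bar is the mean of 2 arrays. In Tnnt3 the Thy arrays labelled JUN (9.76 and 9.67) lie above those labelled -JUN (8.69 and 8.45), whereas the SSC arrays overlap.

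Among the thin filament genes, Acta1, skeletal alpha-actin, had 10.44 and 11.92 in CSP labelled JUN against 10.76 and 9.86 in CSP labelled -JUN. It had 10.86 and 11.51 in Thy labelled JUN against 10.52 and 9.90 in Thy labelled -JUN. It had 9.40 and 11.16 in SSC labelled JUN against 10.33 and 10.53 in SSC labelled -JUN. The arms were apart in Thy only, and in SSC the 2 arrays labelled JUN were the lowest and the highest of the 4. The differences were 0.87 ± 0.63 in CSP, 0.97 ± 0.63 in Thy and -0.14 ± 0.63 in SSC (± SE of the fit, as in all differences here).

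Tnnc2, the fast-fibre troponin C that binds calcium, ordered the arrays of CSP and Thy as Acta1 did. It had 9.49 and 10.70 in CSP labelled JUN against 9.93 and 8.98 in CSP labelled -JUN. In Thy it had 10.19 and 10.24 in arrays labelled JUN against 9.68 and 8.78 in arrays labelled -JUN. In SSC it had 8.92 and 10.18 in arrays labelled JUN against 10.14 and 10.11 in arrays labelled -JUN. The arms did not overlap in Thy, and 1 SSC array, labelled JUN and from mouse 4, lay more than 1 log2 unit under the other 3. The differences were 0.64 ± 0.54 in CSP, 0.98 ± 0.54 in Thy and -0.58 ± 0.54 in SSC.

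Tnnt3, the fast-fibre troponin T that ties troponin to tropomyosin, had the largest difference of the list in Thy, 1.15 ± 0.33. It had 9.76 and 9.67 in Thy labelled JUN against 8.69 and 8.45 in Thy labelled -JUN. In CSP it had 9.35 and 9.78 in arrays labelled JUN against 9.29 and 9.35 in arrays labelled -JUN, a difference of 0.24 ± 0.33 with overlap. In SSC the values 9.20 and 9.89 labelled JUN spanned 9.23 and 9.64 labelled -JUN (0.11 ± 0.33). The 2 arrays of each Thy arm were closer to each other than to any array of the other arm.

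Tnni2, the fast-fibre inhibitory troponin, was the one thin filament gene whose arms were apart in both CSP and Thy. It had 9.20 and 9.61 in CSP labelled JUN against 8.26 and 9.01 in CSP labelled -JUN (0.77 ± 0.34). It had 9.15 and 9.20 in Thy labelled JUN against 8.96 and 8.68 in Thy labelled -JUN (0.35 ± 0.34). In SSC the arms had the same mean, with 8.92 and 9.20 labelled JUN against 8.84 and 9.28 labelled -JUN (-0.0023 ± 0.34). A further Tnni2 probe set, dim in every array, had differences of 0.69 in CSP, 0.48 in Thy and 0.24 in SSC, and its r with the brighter one over the 12 arrays was 0.91. Another was dimmer still, at 4.43 to 5.73, with an r of 0.23.

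The thick filament genes were less alike. Myl1, a myosin alkali light chain of fast fibres, had 9.68 and 8.98 in CSP labelled JUN against 9.53 and 8.69 in CSP labelled -JUN (0.22 ± 0.68). In Thy it had 9.44 and 9.55 in arrays labelled JUN against 9.40 and 7.98 in arrays labelled -JUN (0.80 ± 0.68). In SSC it had 8.41 and 10.52 in arrays labelled JUN against 9.78 and 10.50 in arrays labelled -JUN (-0.67 ± 0.68). The 2 SSC arrays labelled JUN thus differed by more than 2 log2 units, and in Thy the mean gap rests on 1 low array, from mouse 3b. The CSP difference was -0.20 without the -JUN array of mouse 3b and -0.13 without the JUN array of mouse 4.

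Mylpf, the phosphorylatable light chain of fast myosin, had 8.76 and 9.85 in CSP labelled JUN against 8.21 and 8.31 in CSP labelled -JUN (1.05 ± 0.48). The CSP arms were apart. In Thy it had 8.73 and 9.02 in arrays labelled JUN against 8.83 and 8.03 in arrays labelled -JUN (0.44 ± 0.48), with overlap. In SSC it had 8.77 and 9.50 in arrays labelled JUN against 8.56 and 9.56 in arrays labelled -JUN (0.079 ± 0.48), again with overlap.

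Mybpc1, myosin-binding protein C of slow fibres, had the largest CSP difference of the list. It had 9.25 and 8.89 in CSP labelled JUN against 7.88 and 7.86 in CSP labelled -JUN, a difference of 1.20 ± 0.31. Its Thy arms were apart too, with 7.45 and 8.02 labelled JUN against 7.19 and 7.08 labelled -JUN (0.60 ± 0.31). In SSC it had 7.83 and 7.51 in arrays labelled JUN against 8.09 and 7.71 in arrays labelled -JUN (-0.23 ± 0.31). Both CSP arrays labelled JUN were above every other array of the series, from both mice, which no other gene of the list showed. Its 2 other probe sets, which failed the filter, had CSP differences of 0.20 and 0.50, and their r with the brighter one was 0.30 and 0.48.

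Atp2a1, the calcium pump of fast-fibre sarcoplasmic reticulum, lay near the array median. It had 7.70 and 8.21 in CSP labelled JUN against 7.62 and 7.40 in CSP labelled -JUN (0.44 ± 0.31). It had 8.72 and 8.25 in Thy labelled JUN against 7.65 and 7.78 in Thy labelled -JUN (0.77 ± 0.31). The arms were apart in both populations, by under 0.1 in CSP. In SSC it had 7.50 and 7.87 in arrays labelled JUN against 7.82 and 7.72 in arrays labelled -JUN (-0.087 ± 0.31).

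Ckm supplies ATP rather than force. It had 8.80 and 10.65 in CSP labelled JUN against 8.79 and 8.63 in CSP labelled -JUN (1.01 ± 0.66). It had 9.88 and 9.87 in Thy labelled JUN against 10.04 and 8.58 in Thy labelled -JUN (0.56 ± 0.66). It had 8.60 and 10.07 in SSC labelled JUN against 9.32 and 9.25 in SSC labelled -JUN (0.052 ± 0.66). The CSP arms were apart by under 0.01, and the CSP mean gap rests on 1 array, from mouse 7. The Thy gap rests on 1 low array, from mouse 3b: without it the Thy difference was -0.17. Myod1 had 7.88 and 8.84 in CSP labelled JUN against 7.60 and 7.92 in CSP labelled -JUN (0.60 ± 0.36). In Thy it had 8.41 and 7.89 in arrays labelled JUN against 7.99 and 7.84 in arrays labelled -JUN (0.23 ± 0.36), and in SSC 7.74 and 7.93 in arrays labelled JUN against 7.94 and 7.64 in arrays labelled -JUN (0.052 ± 0.36). Its arms overlapped in each population, and the single high value was again the CSP array of mouse 7. Without the Thy array of mouse 4 the Thy difference was -0.0295.

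Counted over the list, both arrays labelled JUN lay above both arrays labelled -JUN for 5 of 10 genes in CSP (Ckm, Tnni2, Mylpf, Atp2a1 and Mybpc1), against 19.3% of all tested genes. In Thy this held for 7 of 10 (all but Ckm, Mylpf and Myod1), against 17.9%, and in SSC for 0 of 10, against 22.7%. The reverse order was seen in 0 of 10 in each population, against 11.9% of all genes in CSP, 10.8% in Thy and 15.7% in SSC. Tnni2, Atp2a1 and Mybpc1 were apart in both CSP and Thy. Averaged over populations, the differences ran from 0.12 (Myl1) to 0.57 (Acta1), positive in 10 of 10 against 57.1% of all genes. Whether JUN acted differently between populations was tested only across all genes: 0 of 12516 passed the interaction test in limma (0.0%), and 144 had a p under 0.05 before adjustment. The gap between SSC and the other populations is therefore a description.

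**Figure D2:**
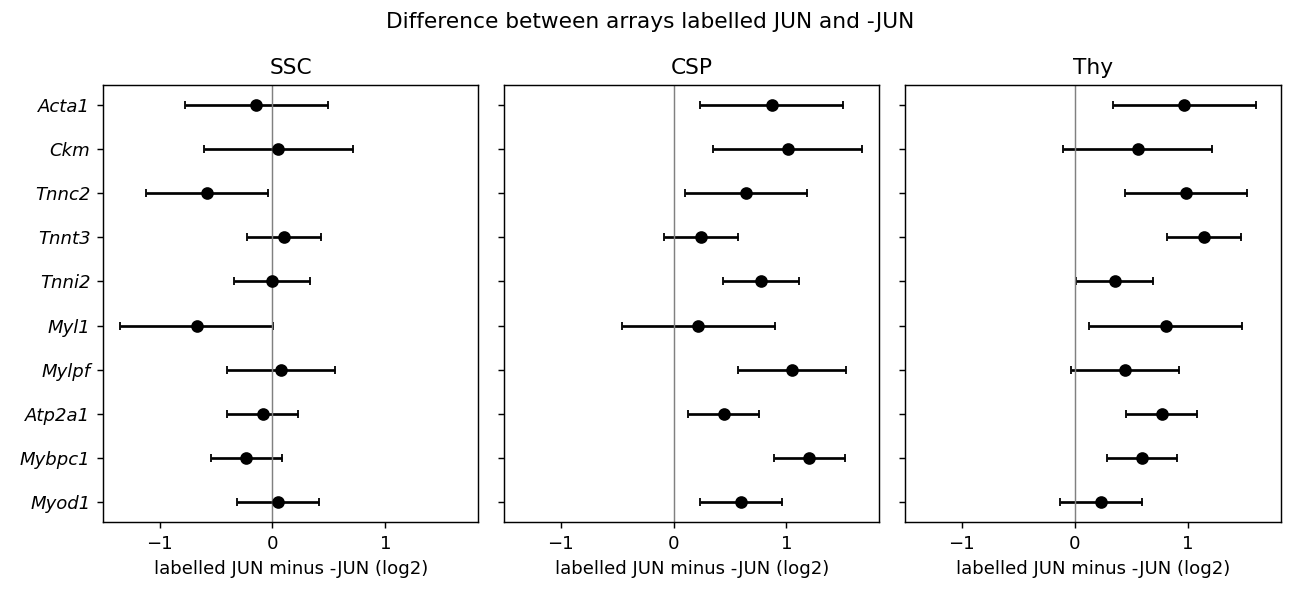
Difference between the means of the 2 arrays labelled JUN and the 2 labelled -JUN (log2, horizontal axes) for each gene, in SSC, CSP and Thy. Bars are ± 1 SE of the fit over all groups. Points lie right of zero for all 10 genes in CSP and in Thy, and between -0.67 and 0.11 in SSC.

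The values are given by mouse here, since a mouse gave up to 3 arrays. Each array's mean deviation of the 10 genes from their own 12-array means was 0.38, 0.74 and 0.31 in SSC, CSP and Thy of mouse 7. It was -0.48, 0.048 and 0.25 in SSC, CSP and Thy of mouse 4, which carries the same label. Mouse 3, labelled -JUN, had -0.0023, -0.22 and -0.11 in SSC, CSP and Thy, mouse 3b had -0.41 and -0.70 in CSP and Thy, and mouse 10 had 0.19 in SSC. The arrays of mouse 7 were thus above the list's mean in all 3 populations, while those of mouse 4 were below it in SSC and above it in Thy.

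Among the 4 arrays of a population, that of mouse 7 was the highest for 6 of 10 genes in SSC, against 16.2% of all tested genes. The count was 8 of 10 in CSP against 40.8%, and 6 of 10 in Thy against 24.3%. Acta1 and Tnnc2 were highest in mouse 7 in all 3 populations, 2 of 10 against 2.74% of all genes. At the other end, mouse 3b had the lowest Thy array for 9 of 10 genes (22.4% of all genes) and the lowest CSP array for 6 of 10 (20.4%). Mouse 4 had the lowest SSC array for 6 of 10 genes (29.5%). The genes were selected on differences between these arms in CSP and Thy. In those populations the counts by mouse thus follow in part from that choice. Mouse and arm are nested here, and their parts cannot be told apart with 2 arrays a group.

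Leaving out single mice moved the counts in SSC. The number of genes higher in SSC arrays labelled JUN was 9 of 10 without mouse 4, 0 of 10 without mouse 7 and 2 of 10 without mouse 3, against 4 with all arrays. On average over populations it was 6 of 10 without mouse 7, against 10 with all mice. In CSP and Thy it stayed at 9 or 10 of 10 under every array or mouse left out.

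**Figure D3:**
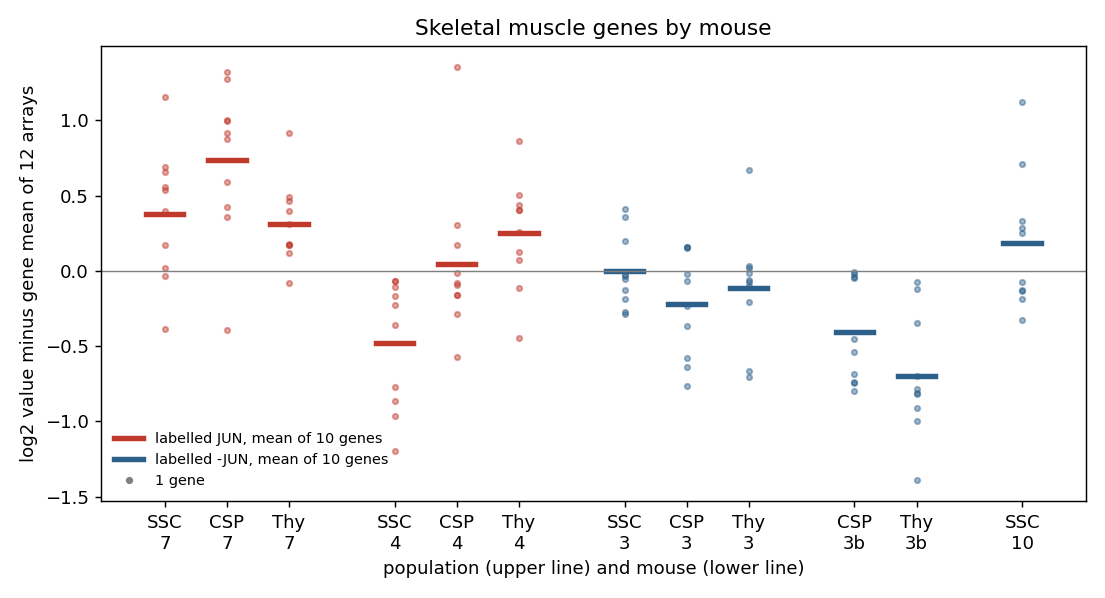
Deviation of each gene from its own mean over the 12 arrays (log2, vertical axis) for each array, ordered by mouse (horizontal axis: population above, mouse below). Small points are the 10 genes, thick lines their mean, red for arrays labelled JUN and blue for -JUN. The lines of mouse 7 lie at 0.31 to 0.74, and those of mouse 3b at -0.70 and -0.41.

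Markers of other cell types are set beside the muscle genes here. The cartilage list averaged 13.2 and 10.4 in CSP labelled JUN against 10.1 and 13.0 in CSP labelled -JUN, so it did not separate the CSP arms. A neutrophil list averaged 8.49 and 8.13 in CSP labelled JUN against 7.28 and 7.62 in CSP labelled -JUN. There 4 of its 4 tested genes (of 7 listed) were higher on average in arrays labelled JUN, against 57.0% of all tested genes. In Thy that list averaged 8.17 and 8.42 labelled JUN against 7.59 and 8.29 labelled -JUN, with 2 of 4 higher against 53.6%. In SSC it averaged 7.41 and 7.04 labelled JUN against 6.90 and 6.87 labelled -JUN, with 3 of 4 higher against 56.3%. An adipocyte list had Adipoq, Fabp4 and Lpl tested, of 7 listed. It had 0 of 3 genes higher on average in arrays labelled JUN in each population, against 53.6% to 57.0% of all tested genes. It averaged 11.2 and 10.5 in CSP labelled JUN against 11.6 and 11.0 in CSP labelled -JUN, and 9.33 and 10.4 in Thy labelled JUN against 10.7 and 10.5 in Thy labelled -JUN. In SSC it averaged 9.70 and 11.5 in arrays labelled JUN against 12.01 and 12.5 in arrays labelled -JUN. The smooth muscle list averaged 9.86 to 9.94 in CSP labelled JUN against 9.60 to 9.75 in CSP labelled -JUN. In SSC it averaged 10.80 to 11.04 labelled JUN against 10.18 to 10.70 labelled -JUN, and in Thy 10.26 to 10.87 against 10.19 to 10.58. Of its 7 genes, 7 were higher on average in arrays labelled JUN in SSC, against 56.3% of all tested genes. In CSP 5 were higher against 57.0%, and in Thy 6 against 53.6%. The poly-A spike-in controls, added to the sample RNA, averaged 10.6 and 11.0 in CSP labelled JUN against 9.38 and 10.2 in CSP labelled -JUN. In Thy the controls averaged 11.5 and 10.6 labelled JUN against 11.2 and 10.6 labelled -JUN, and in SSC 10.5 and 9.39 labelled JUN against 8.08 and 8.65 labelled -JUN. The 3 SSC arrays with a date in their titles were thus the lowest of the SSC arrays in these controls. Their part in the muscle gene values was not tested.

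Between populations the muscle genes did not pass a test. Over both arms, with 4 arrays a population, 54 of 12516 genes passed an adjusted p of 0.05 in limma for SSC minus CSP (0.431%), 49 for SSC minus Thy (0.391%) and 124 for CSP minus Thy (0.991%). None of the 10 genes did so, 0 in each comparison. With the mouse as a block the counts over all genes were 8, 4 and 125, and for the list again 0. Before adjustment, 815, 2210 and 1496 of the 12516 genes had a p under 0.05, and the list had 1, 0 and 1 of them. That gene was Mybpc1 in both comparisons with CSP. The list was selected on differences between CSP and Thy arrays that enter the population means. Its population p-values and intervals are therefore not free of that choice. Only SSC arrays carry the date, so with it as a block the comparisons with SSC rest on the SSC array of mouse 4. The counts over all genes were then 23, 10 and 155, and for the list 0. The list's differences ran from -1.78 (Acta1) to -0.33 (Tnni2) for SSC minus CSP, and from -1.73 (Acta1) to 0.11 (Mybpc1) for SSC minus Thy.

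Mybpc1 was at 7.86 to 9.25 in the CSP arrays, against 7.51 to 8.09 in the SSC arrays and 7.08 to 8.02 in the Thy arrays. For CSP minus Thy the difference was 1.04 ± 0.28 (95% interval 0.42 to 1.65, adjusted p = 0.142, limma), and for SSC minus CSP it was -0.69 ± 0.28 (-1.30 to -0.072, adjusted p = 0.711). The CSP arrays labelled -JUN, at 7.88 and 7.86, lay within the SSC range and above the Thy arrays labelled -JUN, at 7.19 and 7.08. The other 9 genes had differences of -0.39 (Acta1, SSC minus CSP) to 0.71 (Myl1, SSC minus Thy). For Myl1 the interval for SSC minus Thy was -0.35 to 1.77 and for SSC minus CSP -0.48 to 1.65. For Acta1 it was -1.36 to 0.58 for SSC minus CSP, and for Tnni2 the intervals stayed between -0.49 and 0.58. These intervals hold only for the fit without a mouse or date block, which treats arrays of 1 mouse as independent. They do not show that the differences are absent. With the date as a block, SSC minus CSP was -1.78 for Acta1 and -1.05 for Myl1, outside these intervals. Tnni2 (-0.33) and Mybpc1 (-0.93) lay inside theirs.

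**Figure D4:**
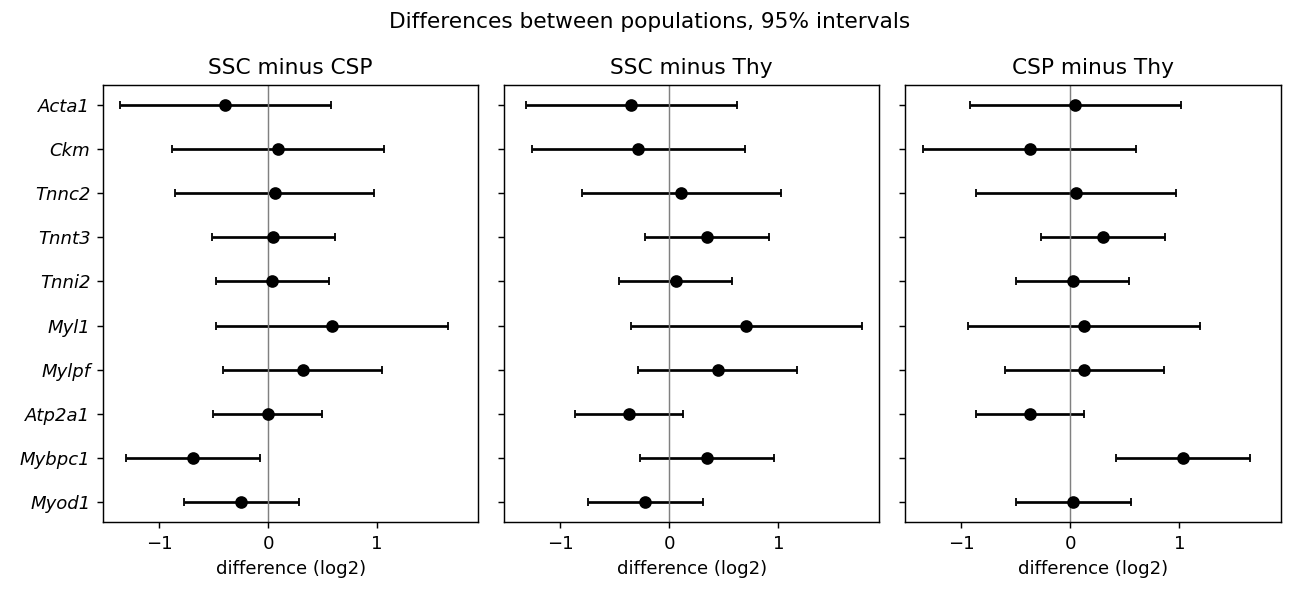
Differences between population means over both arms (log2, horizontal axes) for each gene: SSC minus CSP, SSC minus Thy and CSP minus Thy, with 95% intervals from limma. The intervals of Mybpc1 leave out zero in SSC minus CSP and CSP minus Thy, and the other 28 of 30 include it.

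Over the 12 arrays the genes moved together to different degrees. The 45 pairs had a median Pearson r of 0.50, from -0.14 (Myl1 and Myod1) to 0.89 (Acta1 and Tnnc2), with 23 pairs above 0.5 and 1 below 0. With the mean of the other 9 genes, r was 0.90 for Tnnc2, 0.85 for Acta1, 0.79 for Ckm, 0.79 for Mylpf, 0.75 for Tnnt3 and 0.69 for Tnni2. It was 0.58 for Atp2a1, 0.56 for Myod1, 0.48 for Myl1 and 0.30 for Mybpc1. Tnnc2, Acta1, Ckm and Mylpf thus followed the rest most closely, and the slow-fibre Mybpc1 least. The arrays share mice and arms, so these values describe 12 arrays that are not independent. The genes were also selected on a shared difference between the arms in CSP and Thy, which tends to raise r between them.

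**Figure D5:**
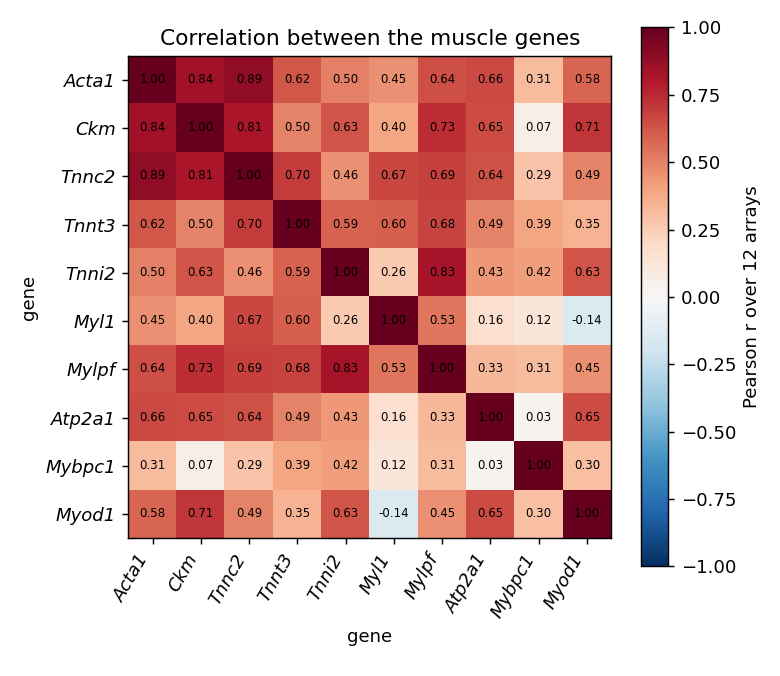
Pearson r between each pair of the 10 genes over the 12 arrays (colour scale from -1 to 1, value in each cell). Acta1 and Tnnc2 are highest at 0.89, and the row of Mybpc1 is the palest.

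Among 9892 other genes with a range of at least 1 log2 unit, the 8 whose pattern was most like the list's mean were 2310039H08Rik (r = 0.90), 1700001G17Rik (0.89), Mms22l (0.87), Nme4 (0.84), Exosc8 (0.83), Kbtbd4 (0.83), Smim20 (0.83) and Tamm41 (0.83). None is on a muscle list. The median r of all candidates was -0.012.

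Many other genes of the muscle programme were dim. Of 71 further genes on 6 lists, 68 had a single-symbol probe set and 34 of these passed the filter. Over all genes with such a probe set, 12516 of 18193 passed. Of the 34 muscle genes that passed, 17 lay above the median in all 12 arrays. The 34 that failed include the sarcomeric myosin heavy chains Myh1, Myh2, Myh3, Myh4, Myh7 and Myh8, the giant proteins Neb and Ttn, the calcium release channel Ryr1, the calcium buffer Pvalb, and the regulators Myog, Myf5 and Pax7. The 6 heavy chains reached at most 5.87, 7.62, 7.73, 6.86, 7.59 and 7.44, Neb 6.99, Ttn 7.64, Ryr1 7.85 and Pvalb 7.75. Myog reached 6.51, Myf5 4.48 and Pax7 6.04. In all, 26 of the 34 failing genes were above the array median in 0 of 12 arrays. A dim probe set does not show that a transcript is absent.

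By list, 8 of 11 thin filament genes, 4 of 15 thick filament genes, 9 of 13 Z-disc genes, 4 of 13 genes of calcium handling, 7 of 9 of energy supply and 2 of 10 regulators of the muscle lineage were tested. Between the arms, 28 of the 34 tested genes were higher in arrays labelled JUN in CSP, against 57.0% of all tested genes. Their median difference was 0.28 against 0.068 over all genes. In Thy 25 of 34 were higher against 53.6% (median 0.29 against 0.037). In SSC 19 of 34 were higher against 56.3%, near that share (median 0.077 against 0.079). None of these genes passed between the arms, where 0.0% of all genes did. These lists too were drawn up with earlier results known.

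Against the list's mean, 9 of the 34 had an r above 0.5 and 8 had one below 0. The highest were Csrp3 (0.78), a Z-disc LIM protein, Myoz2 (0.73), a calcineurin-binding Z-disc protein, and Actc1 (0.72), cardiac alpha-actin. Actc1 had 6.43 and 8.79 in CSP labelled JUN against 7.21 and 5.41 in CSP labelled -JUN, with the arms overlapping and mouse 7 again highest. Tpm1, a tropomyosin that non-muscle cells also make, was among the lowest at -0.61.

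Between populations 1 of the 34 passed. Of all tested genes, 0.431% passed for SSC minus CSP, 0.391% for SSC minus Thy and 0.991% for CSP minus Thy. Des (desmin), the intermediate filament around the Z-disc, which smooth muscle cells and pericytes also make, had 8.18 to 9.03 in SSC and 8.37 to 9.57 in CSP, against 9.61 to 10.42 in Thy. It was lower in SSC than in Thy (-1.30 ± 0.22, adjusted p = 0.0379) and in CSP than in Thy (-1.16 ± 0.22, adjusted p = 0.0259, limma). The ranges did not overlap, but neither call held with the mouse as a block (adjusted p = 0.14 and 0.0547). With the title date as a block the adjusted p was 0.233 for SSC minus Thy and 0.0286 for CSP minus Thy. Over all alternatives the call for SSC minus Thy held in 7 of 22 and that for CSP minus Thy in 12 of 22. The nearest others were Myom2, an M-band protein, at -1.44 ± 0.28 for SSC minus Thy (adjusted p = 0.0544), and Tpm2, a tropomyosin, at -0.94 ± 0.20 for CSP minus Thy (adjusted p = 0.0547, limma). Actn3, the fast-fibre alpha-actinin, was at -1.05 ± 0.27 for SSC minus Thy (adjusted p = 0.11), Lmod2 at 1.65 ± 0.53 for SSC minus Thy (adjusted p = 0.169) and Pygm, muscle glycogen phosphorylase, at -1.05 ± 0.45 for CSP minus Thy (adjusted p = 0.382, limma). The genes of calcium handling and the regulators had no adjusted p under 0.46.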

How the data were processed

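The 12 arrays were analysed from the values table the authors deposited, in log2 units, made with RMA per the submitters' processing notes; its settings and the array's scanner data were not used here. Probe sets were named from the platform annotation: of 45037 probe sets that are not controls, 34945 have 1 symbol, 932 have several and 9160 have none. A probe set was kept if it lay above its array's median in at least 2 arrays, and the brightest kept probe set stood for its gene (12516 genes). Groups came from the sample descriptions and mice from the titles. Linear models were fitted over all genes with limma 3.58.1 in R 4.3.3: 6 group means for JUN, and population plus arm for the populations, with Benjamini-Hochberg adjustment at 0.05. The fits were tested on simulated data. Same-numbered arrays of the JUN and -JUN arms are different mice. Arrays of 1 mouse number in different populations were taken as the same animal, and their deviations from the population means correlated at -0.084 to 0.50. The genes and lists were chosen with earlier results of these data known. The text names the 10 genes, up to 3 genes of lowest p in a population comparison (and any that passed) from each other muscle list, the 8 genes most like the list's mean, and Thy1 with other surface genes. Genes given as dim, and Csrp3, Myoz2, Actc1 and Tpm1, were named after their values were seen. Promoters are from RefSeq (GRCm38.p6). Alternatives changed the filter, the probe set rule, the normalisation, the mouse and replicate blocks, the date in the titles as a block (added after the data were seen), the variance trend, and left out each array and mouse.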

Additional observations from a re-analysis of the deposited data

Results flagged for a closer look

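In 30 sets of 4 arrays (10 genes in 3 populations), 5 single values stood far from the other 3 arrays of their population by Dixon's test at its 95% critical ratio. Chance marks about 1 in 20 independent sets. These sets share arrays and genes that move together, and the genes were selected on differences between these arms, so that share is no measure for them. Of these, 2 belong to CSP labelled JUN of mouse 7: Ckm at 10.65 (a gap of 0.916 of the range) and Tnnt3 at 9.78 (0.88), both high. Another 2 belong to Thy labelled -JUN of mouse 3b: Ckm at 8.58 (0.88) and Myl1 at 7.98 (0.907), both low. The fifth is Tnnc2 at 8.92 in SSC labelled JUN of mouse 4 (0.945), low.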

How the results depend on the processing

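The precision is set by 2 arrays a group and shared mice. No gene of the list passed the threshold in any of 660 alternative values for the populations, of which 84 reversed sign. Of 850 alternative JUN differences, 63 moved by more than the spread between replicates. With the mouse as a fixed replicate block, the calls over all genes were 8 for SSC minus CSP and 4 for SSC minus Thy. Under it these differences reversed: for SSC minus CSP, Ckm (-0.16), Tnnc2 (-0.32), Tnnt3 (-0.13), Tnni2 (-0.091) and Mylpf (-0.019), and for SSC minus Thy, Tnnc2 (-0.27) and Tnni2 (-0.068). The block changed no call of the list. With the date in the titles as a block, added after the data were seen, the calls were 23 for SSC minus CSP and 10 for SSC minus Thy, and 9 genes of the list were higher in SSC labelled JUN. In SSC the arm labelled JUN then rests on the array of mouse 7 alone. These differences reversed with the date as a block: for SSC minus CSP, Ckm (-1.01), Tnnc2 (-1.17), Tnnt3 (-0.57), Tnni2 (-0.33), Myl1 (-1.05) and Mylpf (-0.34), and for SSC minus Thy, Tnnc2 (-1.12), Tnnt3 (-0.27), Tnni2 (-0.31), Myl1 (-0.93) and Mylpf (-0.21). Pairing the arms by replicate number was checked: same-numbered arrays of the 2 arms deviated with r = -0.10 in CSP and -0.18 in Thy. A block on that number gave 0 calls in both (385 and 407 genes at an unadjusted p under 0.05), and the crossed block, added after the data were seen, gave 0 as well (257 and 460). For SSC minus Thy, 24 genes passed without the filter on dim probe sets and 75 with the mean of a gene's probe sets. The causes were not tested.

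Leaving out single arrays or mice, the calls over all genes ran from 0 to 282 for JUN in SSC, 0 to 2 in CSP, 0 to 175 in Thy and 0 to 495 on average. The highest of these counts came without mouse 7 in SSC, in Thy and on average, and without mouse 4 in CSP. With either mouse left out, the label JUN rests on a single array in each population. Whether a gene of the list was among these calls is not given here. The calls ran from 7 to 62 for SSC minus CSP (7 without mouse 7), 3 to 304 for SSC minus Thy (3 without mouse 3, 304 without SSC labelled JUN of mouse 4) and 17 to 155 for CSP minus Thy (17 without mouse 3). Genes of the list higher in arrays labelled JUN ran from 0 to 9 in SSC and 6 to 10 on average. The reversed population differences ran as follows. For SSC minus CSP: Acta1 -0.64 to 0.071, Ckm -0.17 to 0.52, Tnnc2 -0.21 to 0.47, Tnnt3 -0.10 to 0.25, Tnni2 -0.18 to 0.19 and Atp2a1 -0.11 to 0.15. For SSC minus Thy: Acta1 -0.57 to 0.12, Ckm -0.58 to 0.082, Tnnc2 -0.21 to 0.57 and Tnni2 -0.091 to 0.18. For CSP minus Thy: Acta1 -0.29 to 0.27, Tnnc2 -0.23 to 0.30, Tnni2 -0.13 to 0.26, Myl1 -0.27 to 0.36, Mylpf -0.17 to 0.38 and Myod1 -0.28 to 0.21. Desmin kept its call under 7 of 22 alternatives for SSC minus Thy (adjusted p = 0.0209 to 0.238 over all) and 12 of 22 for CSP minus Thy (0.0141 to 0.29). Thy1 kept both calls under 22 of 22, and Eng kept 13 of 22 for SSC minus CSP (0.00909 to 0.142) and 10 of 22 for SSC minus Thy (0.0197 to 0.182).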
